A study of Mus musculus and Homo sapiens with 34 samples.

Results

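CT26 is a mouse colon carcinoma line that gathers into a compact ball of cells, a spheroid, when it cannot attach to the dish. CT26 spheroids grown as cells alone, with no added matrix, gave 6 of the 34 libraries of the series, and the labels number them 1 to 6. Libraries 4 to 6 are set here against libraries 1 to 3, with 3 libraries in each range. The division follows the number in the labels and nothing else, since the labels name no batch, passage, seeding day or sequencing run that would separate the ranges. Per the labels, both ranges share everything else: the unmodified CT26 line, RPMI medium with fetal bovine serum and antibiotics, U-bottom plates of ultra-low attachment plastic, no added agent, collection on day 7 and 10 spheroids pooled in each tube before RNA extraction. A library is therefore an average over pooled spheroids of 1 line. The same range of numbers was compared in 3 other sets of spheroids. These were CT26 grown with the decellularised SIS ECM matrix (libraries 4 to 6 against 1 to 3), MC38 cells alone, another mouse colon carcinoma line (libraries 4 and 5 against 1 to 3), and HT29 cells alone, a human colon carcinoma line (libraries 4 to 6 against 1 to 3).

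A spheroid draws its oxygen and nutrients inwards from its surface, so its cells live in a gradient of supply. Mitochondria make ATP with a respiratory chain and an ATP synthase whose subunits come from both genomes: a small set is transcribed from mitochondrial DNA (mtDNA) and the rest from nuclear genes. When oxygen is short, the transcription factor HIF-1 accumulates and raises the genes of glucose uptake, glycolysis, lactate export, pH control and vessel growth, and cells with poor supply also divide less. Mitochondrial, glycolytic, hypoxia and cell cycle genes are therefore the usual readings of the state of a spheroid.

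The 6 libraries fell into 2 tight sets by number. Libraries 4 to 6 held 17158133 to 18676845 counts and libraries 1 to 3 held 16048726 to 20294975 counts. Pairs within a range correlated at 0.992 to 0.994 on log2 CPM (counts scaled to a common library size), and pairs across ranges at 0.982 to 0.986. The first principal component took 54.4% of the variance and separated libraries 4 to 6 from libraries 1 to 3 with no overlap. Of 12227 genes tested with edgeR's quasi-likelihood test, 5423 (44.4%) differed at an adjusted p under 0.05, of which 2659 were higher in libraries 4 to 6 (21.7% of the genes tested) and 2764 were lower (22.6%). In the paragraphs that follow, rose and fell mean that libraries 4 to 6 differed from libraries 1 to 3 by this test, which sets them against the spread between libraries only. The differences were many and small: the median absolute log2 fold change of the called genes was 0.34, and 250 of them reached 2-fold (187 higher, 63 lower). The ranges did not overlap in 6484 genes (53.0%). Among them were 5230 of the 5423 called genes, so ranges apart add little to a call. The median log2 fold change over all genes tested was 0.005, which is the level against which the medians of gene lists stand. Counts of called members in a list stand against the 21.7% higher and 22.6% lower over all genes tested.

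Fold changes also followed the shape of the transcript. Over the 12227 genes, the log2 fold change correlated with transcript length at a Spearman rho of -0.294 and with GC content at -0.191, and a smooth trend on both took 18.8% of its variance. Divided into 10 equal parts by length, the genes with the shortest transcripts had a median of 0.34 and those with the longest -0.09. Length and GC content were those of each gene's longest annotated transcript, which need not be the one expressed. By this measure ribosomal and respiratory genes have short transcripts (median lengths of 1047 and 1088 bases, against 3241 over all genes tested). Medians with the trend subtracted are therefore given beside those of these lists. The part of the trend in any list's difference was not tested.

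Markers of endothelium, leukocytes and smooth muscle were close to absent in both ranges. Among the fibroblast-type markers Col1a2 was abundant. Col1a1, Col3a1, Pdgfra and Pdgfrb were expressed at lower levels, while Thy1, Lum and Fap were at or near 0. Summed over 7 endothelial markers the level was 0.175 to 0.333 CPM in libraries 4 to 6 and 0.0985 to 0.249 CPM in libraries 1 to 3, with Cdh5, Kdr, Erg and Emcn at 0 in all 6. The 8 leukocyte markers summed to at most 1.69 CPM in libraries 4 to 6 and at most 3.05 CPM in libraries 1 to 3, with Cd3e, Adgre1, Itgam and Csf1r at 0, and the sum was nearly all Cd68. The 5 smooth muscle markers summed to under 1 CPM in every library, with Acta2 and Cnn1 at 0. Of the markers of colon epithelium, Epcam and Cdh1 were at 0 in all 6 libraries, while Krt20 stood at 46.6 to 47.7 CPM in libraries 4 to 6 and 35.8 to 42.8 CPM in libraries 1 to 3. These 2 genes encode EpCAM and E-cadherin, so 2 defining markers of the labelled carcinoma type were absent from the counts. The 9 fibroblast-type markers summed to 481 to 520 CPM in libraries 4 to 6 and 694 to 801 CPM in libraries 1 to 3. Most of this was Col1a2, while Thy1 was at 0, Lum reached at most 0.0493 CPM and Fap at most 0.466 CPM. Between these stood Col1a1, at 16.6 to 19.3 CPM in libraries 4 to 6 and 22.1 to 31.7 CPM in libraries 1 to 3. In the same order, Pdgfra had 13.6 to 14.5 and 19.6 to 22.3 CPM, and Pdgfrb 13.3 to 16.5 and 20.3 to 25.4 CPM. Of the 6 fibroblast-type markers tested, 5 fell and none rose. In bulk RNA, fewer cells with a programme and less of its RNA in each cell cannot be told apart.

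Transcripts of mtDNA made up a larger part of libraries 4 to 6. The 13 protein-coding genes of mtDNA took 7.90 ± 0.223% of counts in libraries 4 to 6 and 4.79 ± 0.0929% in libraries 1 to 3 (SD, n = 3 each), a difference of 3.1 percentage points. The exact permutation test, two-sided, gave p = 0.1, the smallest that 3 against 3 libraries allow. With numbers permuted within a culture over the 12 CT26 libraries of both cultures, the exact p was 0.005, the smallest that 400 regroupings allow. In each culture every library of the range 4 to 6 lay above every library of the range 1 to 3. The split and the list were chosen with earlier results of these data known, so both p-values only restate this separation. Other measures of the libraries are given beside the mtDNA share. The 100 most abundant genes took 28.2% of counts in libraries 4 to 6 and 23.5% in libraries 1 to 3. They include abundant mtDNA genes, so this measure is not independent of the mtDNA share. Replication-dependent histone transcripts, which mostly carry no polyA tail, took 0.00299 ± 0.000139% in libraries 4 to 6 and 0.00394 ± 0.000151% in libraries 1 to 3 (SD, n = 3 each). Of the 70 listed histone genes 60 were too low to test, and 4 of the 10 tested were lower and none higher. Whether the counted histone transcripts carried a polyA tail was not measured. The nuclear RNAs Malat1 and Neat1 together took 0.156 to 0.178% in libraries 4 to 6 and 0.130 to 0.159% in libraries 1 to 3. Among 6 tested nuclear long noncoding RNAs 3 rose and none fell. Over all genes tested 21.7% rose and 22.6% fell. The part of these measures in the result was not tested. All 13 genes rose, with log2 fold changes between 0.31 and 1.07 and a median of 0.83 (0.27 with the trend in length and GC content subtracted, which left mt-Nd3 at -0.01, mt-Nd6 at -0.62 and mt-Atp8 at -0.44).

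**Figure D1:**
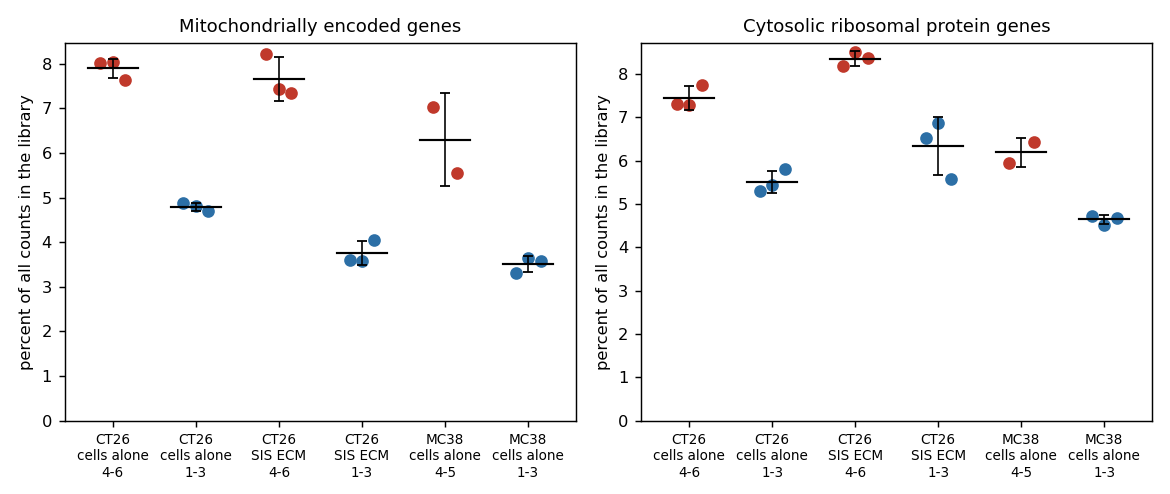
Share of all counts per library (percent, vertical axis) from the 13 protein-coding genes of mitochondrial DNA (left) and from cytosolic ribosomal protein genes (right), for libraries 4-6 (4-5 in MC38; red) and 1-3 (blue) of CT26 cells alone, CT26 with SIS ECM and MC38 cells alone. Points are libraries, the long line is the mean and the bar is ± SD. In each set of spheroids every red point of the left panel lies above every blue point, with means of 7.90 and 4.79% in CT26 cells alone.

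The subunits of complex I, the NADH dehydrogenase through which most electrons enter the chain, gave the widest range. mt-Nd4, a proton-pumping subunit, had 8620, 8470 and 7900 CPM in libraries 4, 5 and 6, against 4190, 3780 and 3990 CPM in libraries 1, 2 and 3, a log2 fold change of 1.06 ± 0.05 (SE; adjusted p = 1.6e-09). The lowest of libraries 4 to 6 stood at nearly double the highest of libraries 1 to 3, and the ranges did not overlap. mt-Nd2 rose by a log2 fold change of 1.02, mt-Nd1 by 0.91 and mt-Nd5 by 0.80. mt-Nd3 had 132, 143 and 146 CPM in libraries 4 to 6 and 69.5, 94.7 and 38.3 CPM in libraries 1 to 3, a log2 fold change of 1.07 ± 0.18 with a wide spread among libraries 1 to 3. mt-Nd6 had the smallest change, with 33.8, 37.2 and 30.8 CPM in libraries 4 to 6 and 27.0, 26.5 and 28.7 CPM in libraries 1 to 3 (log2 fold change 0.31 ± 0.08, adjusted p = 0.0035). Its call was lost with all CT26 libraries in 1 fit (adjusted p = 0.23). mt-Nd6 is the only one of the 13 encoded on the light strand of mtDNA and lies opposite to transcripts of the heavy strand. The library kit keeps strand, per the labels, but the strand setting of the counting was not stated, so reads of mt-Nd6 and of its antisense partners may not be separable.

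The catalytic subunits of cytochrome oxidase and the subunit of complex III moved the same way. mt-Co1, the copper- and haem-bearing subunit that reduces oxygen, was the most abundant of the 13 and had 32700, 32800 and 31400 CPM in libraries 4 to 6 and 20000, 19700 and 19000 CPM in libraries 1 to 3 (log2 fold change 0.72 ± 0.05, adjusted p = 4.8e-08). mt-Co2 rose by 0.94 and mt-Co3 by 0.69 on the log2 scale. mt-Cytb, cytochrome b of complex III, rose by 0.75, and the ATP synthase subunits mt-Atp6 and mt-Atp8 by 0.81 and 0.83. The 12S ribosomal RNA of mtDNA, mt-Rnr1, which a polyA selection captures only in part, averaged 921 ± 65.5 CPM in libraries 4 to 6 and 384 ± 7.81 CPM in libraries 1 to 3 (SD, n = 3 each), the largest change of any mtDNA gene in the fit (log2 fold change 1.26 ± 0.05). mtDNA genes have near-identical copies in the nuclear genome, so a small part of these counts is uncertain in origin.

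Nuclear genes of the respiratory chain rose with them, by less. Of 78 listed subunits of complexes I to V, 76 passed the filter on low counts (Ndufa11b and Ndufs6b did not), 57 of the 76 rose and 1 fell, with a median log2 fold change of 0.41 (0.21 with the length and GC trend subtracted). By complex, 29 of 37 tested members of complex I rose, 7 of 9 of complex III, 8 of 11 of complex IV and 11 of 15 of complex V, and none fell. Complex II, which has no mtDNA-encoded subunit and also works in the TCA cycle, was split: Sdhb, its iron-sulfur subunit, and Sdhd rose by 0.53 and 0.27, Sdha, its flavoprotein, fell by 0.32, and Sdhc had a log2 fold change of -0.06 that did not pass.

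The members differed among themselves. Ndufb7, a complex I subunit of the intermembrane space, had 7.28, 7.94 and 8.21 CPM in libraries 4 to 6 and 4.08, 3.75 and 4.5 CPM in libraries 1 to 3 (log2 fold change 0.92 ± 0.13, adjusted p = 3.1e-05). Cox7c, a small subunit of cytochrome oxidase, had 96.9, 95.5 and 98.0 CPM in libraries 4 to 6 and 57.6, 68.0 and 63.1 CPM in libraries 1 to 3 (0.62 ± 0.06, adjusted p = 2.6e-07). In both genes every library of the range 4 to 6 lay above every library of the range 1 to 3. With the length and GC trend subtracted, Cox7c stood at 0.01, and Uqcrb, a complex III subunit that rose by 0.39, at -0.18. Atp5k, the e subunit of the ATP synthase, rose by 0.74 and stood at 0.42 after that step. Atp5c1, the gamma subunit of the ATP synthase, rose by 0.52 (adjusted p = 1.2e-07). Several members did not pass. Atp5b, the catalytic beta subunit of the ATP synthase, averaged 1060 CPM in libraries 4 to 6 and 1060 CPM in libraries 1 to 3 (0.00 ± 0.04, adjusted p = 0.95), and the cytochrome oxidase subunits Cox5a and Cox8a had log2 fold changes of 0.04 (adjusted p = 0.5) and 0.07 (adjusted p = 0.42).

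**Figure D2:**
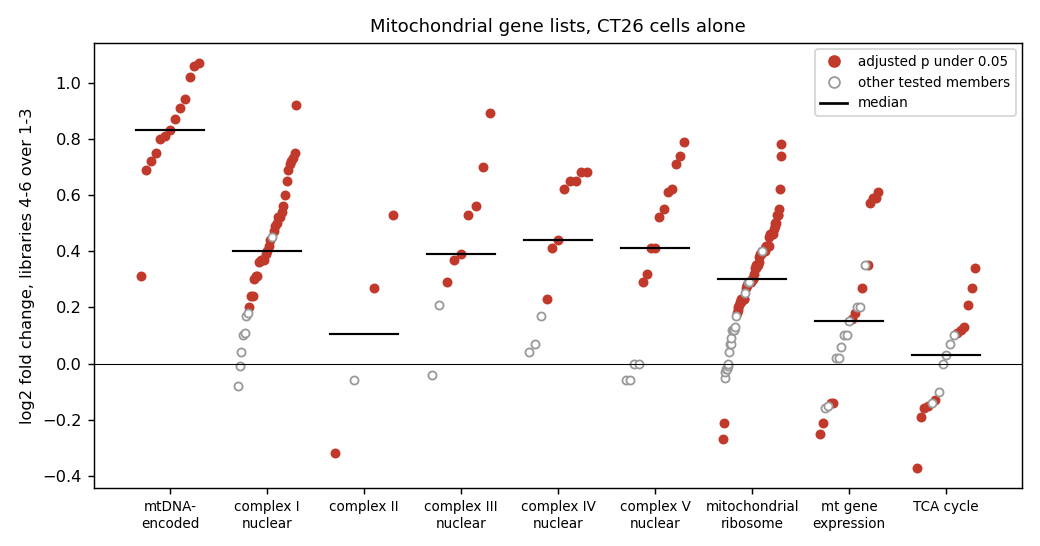
Log2 fold change of each tested member (libraries 4-6 over 1-3, vertical axis) of 9 mitochondrial gene lists in CT26 cells alone. Filled points have an adjusted p under 0.05, open points do not, and the line is the list's median. All 13 mtDNA-encoded genes lie above 0 with a median of 0.83, complexes I, III, IV and V centre near 0.4, and the TCA cycle centres at 0.03.

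The machinery that expresses mtDNA was mixed. Genes of the mitochondrial ribosome, which translates the mtDNA messages, rose in 57 of 78 tested members and fell in 2, with a median of 0.30 (0.20 with the trend subtracted), and Mrpl12, which also binds the mitochondrial RNA polymerase, rose by 0.74. Of 24 listed factors of mtDNA transcription, maintenance and translation and their regulators, 23 were tested, 8 rose and 4 fell, with a median of 0.15. Over all genes tested 21.7% rose and 22.6% fell. Slirp, which binds and stabilises mitochondrial mRNA, averaged 31.6 ± 1.47 CPM in libraries 4 to 6 and 21.0 ± 0.595 CPM in libraries 1 to 3 (0.59 ± 0.07, adjusted p = 4.5e-06). Lrpprc, the partner of Slirp in that complex, fell by 0.14 (adjusted p = 0.013), a call lost when library 1, 2 or 4 was left out (adjusted p = 0.053 to 0.08). Tfb1m, an rRNA methyltransferase, and Esrra, a nuclear receptor that drives respiratory genes, rose by 0.61 and 0.59. Tfam, the packaging and initiation factor of mtDNA, rose by 0.16 (adjusted p = 0.035), a call lost when any library but library 1 was left out (adjusted p = 0.056 to 0.19). Ppargc1a, a coactivator of mitochondrial biogenesis, had a log2 fold change of 0.35 ± 0.20 (adjusted p = 0.18). It was 0.57 without library 3 (adjusted p = 0.023) and 0.54 without library 6 (adjusted p = 0.034).

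Enzymes of the TCA cycle did not rise as a group. Of 17 tested, 6 rose and 5 fell, with a median of 0.03 (over all genes tested 21.7% rose and 22.6% fell). Cs, citrate synthase, which is often read as a measure of mitochondrial mass, had 263, 254 and 265 CPM in libraries 4 to 6, against 340, 327 and 342 CPM in libraries 1 to 3 (-0.37 ± 0.04, adjusted p = 3.2e-06). All 3 libraries of the range 4 to 6 were below all 3 of the range 1 to 3, so Cs ran opposite to the genes of the respiratory chain. The other calls in the list were between -0.19 and 0.34.

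Nearly all genes of the cytosolic ribosome rose. Ribosomal protein genes took 7.44 ± 0.269% of counts in libraries 4 to 6 and 5.51 ± 0.264% in libraries 1 to 3 (SD, n = 3 each). The exact permutation test gave p = 0.1, the smallest possible, for a split and a list chosen with earlier results known. Of 87 tested genes 83 rose and none fell, with a median log2 fold change of 0.59 (0.36 with the length and GC trend subtracted). Rpl39 had 838, 808 and 826 CPM in libraries 4 to 6 and 474, 482 and 463 CPM in libraries 1 to 3 (0.80 ± 0.04, adjusted p = 1.6e-09), and the ranges were far apart. Ribosomal protein genes have many processed pseudogenes with near-identical sequence, so the split of reads between copies is uncertain. Of the 12 genes with the largest rises by the rule for named genes, 3 were such copies (Rps12l1, Rps16-ps2 and Rpl19-ps11). The highest log2 fold change in the ribosomal list, 1.51, equals that of Rps12l1, so the 87 tested genes may include such copies.

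Messages of ribosomal proteins usually begin with a C followed by a run of pyrimidines, the terminal oligopyrimidine tract through which their translation is controlled together. In the RefSeq table (GRCm38.p6) 62 of the 87 genes had 73 annotated starts. Of these 28 (38.4%) held, within 5 bases of the start, a C followed by at least 5 pyrimidines, against 10.2% of all 32851 starts. Bases before that C were not checked, so the tract could begin earlier. The starts of 4 genes are shown, those with the largest rises among the genes with a single start that could be printed (Rps14, which rose by 1.02, is named only). They run from 10 bases before to 20 bases from the start, with that run in capitals. They were chosen after their values were seen.
Rpl41: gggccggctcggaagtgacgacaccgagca
Rpl35: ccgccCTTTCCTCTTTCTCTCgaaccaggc
Rpl37a: ctcgccggtctaaaaccgcgcatgcgcatt
Rpl38: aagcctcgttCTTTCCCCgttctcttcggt
These stretches are chr10:128549149-128549178 (minus strand), chr2:39005112-39005141 (minus), chr1:72711250-72711279 (plus) and chr11:114668570-114668599 (plus). Rpl41 rose by 1.01, Rpl35 by 0.91, and Rpl37a and Rpl38 by 0.82 each. The capitals began 5 bases before the annotated start of Rpl35, the edge of the stretch searched, and at that of Rpl38. In both genes further pyrimidines stood directly before the capitals. No such run was in the window of Rpl41 or Rpl37a.

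Genes of the proteasome, which degrades tagged proteins, rose in 25 of 37 tested members and fell in 1, with a median of 0.23 (0.11 with the trend subtracted). Psmb3 had 59.2, 63.0 and 67.2 CPM in libraries 4 to 6 and 37.1, 38.4 and 40.6 CPM in libraries 1 to 3 (log2 fold change 0.71).

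**Figure D3:**
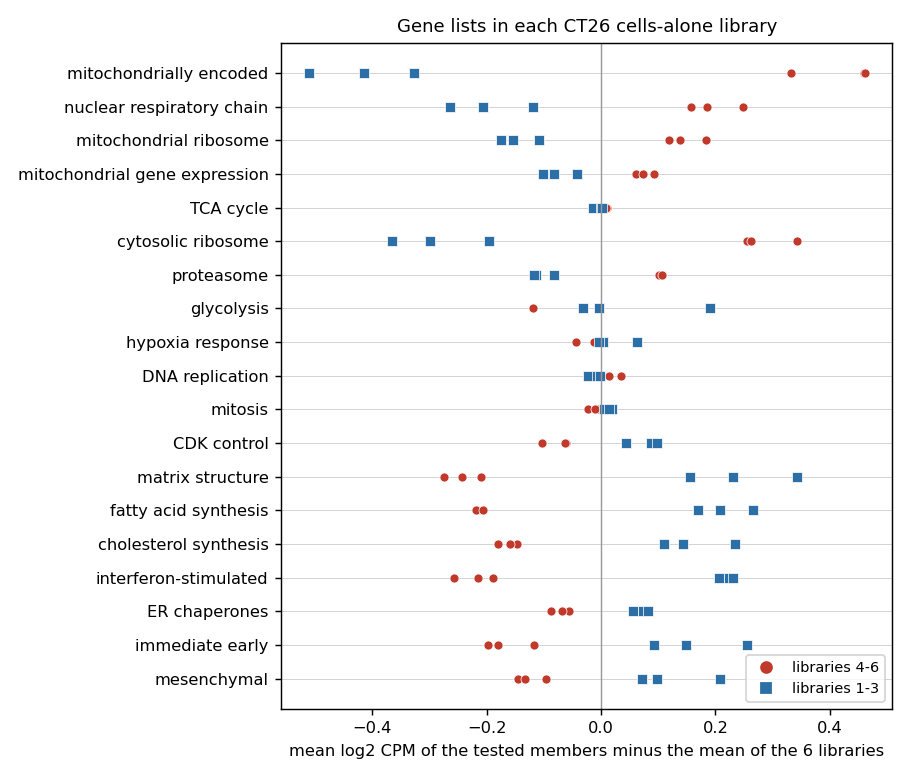
Mean log2 CPM of the tested members of 19 gene lists in each CT26 cells-alone library, as the difference from the mean of the 6 libraries (horizontal axis), for libraries 4-6 (red circles) and 1-3 (blue squares). The mtDNA-encoded list runs from 0.333 to 0.461 in libraries 4-6 and from -0.511 to -0.327 in libraries 1-3, while the TCA cycle, DNA replication and mitosis lists lie within 0.05 of 0 in all 6 libraries.

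Glycolysis was lower at some steps and not at others. Of 23 listed genes of glucose uptake, glycolysis and lactate handling, 22 were tested (Slc2a3 had at most 2 counts in a library), 2 rose and 8 fell, with a median of -0.11. Aldoa, the aldolase that splits fructose bisphosphate, had 657, 632 and 688 CPM in libraries 4, 5 and 6, against 957, 1020 and 1140 CPM in libraries 1, 2 and 3 (-0.66 ± 0.06, adjusted p = 2.3e-07). Gpi1, the phosphoglucose isomerase, had 788, 776 and 787 CPM in libraries 4 to 6, against 980, 955 and 1100 CPM in libraries 1 to 3 (-0.37 ± 0.05). Pkm, the pyruvate kinase, had 1230, 1250 and 1360 CPM in libraries 4 to 6, against 1450, 1520 and 1770 CPM in libraries 1 to 3 (-0.31 ± 0.06). In all 3 genes the ranges did not overlap and library 3 was the highest of the 6.

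Pgk1, Pgam1 and Pfkm fell by 0.22, 0.25 and 0.39, and Slc16a1, a lactate transporter, fell by 0.14. The call of Pfkm was lost without library 5 (adjusted p = 0.058), and that of Slc16a1 without library 2 (adjusted p = 0.13) or 4 (adjusted p = 0.086). Aldoc, a second aldolase, stood under 1 CPM in all 6 libraries, and its fall of 1.22 ± 0.44 (adjusted p = 0.031) was lost when library 1, 3, 5 or 6 was left out (adjusted p = 0.063 to 0.15). Eno2, the neuronal form of enolase that HIF-1 also raises, ran the other way, with 195, 203 and 209 CPM in libraries 4 to 6 and 118, 117 and 141 CPM in libraries 1 to 3 (0.69 ± 0.06, adjusted p = 2.2e-07). Ldha, the lactate dehydrogenase subunit that makes lactate, had 2660, 2630 and 2770 CPM in libraries 4 to 6 and 2140, 2290 and 2500 CPM in libraries 1 to 3 (0.22 ± 0.05, adjusted p = 0.0041), with a narrow gap between the ranges. With all CT26 libraries in 1 fit, the calls of Pkm (adjusted p = 0.12), Ldha (0.059), Pfkm (0.073), Slc16a1 (0.19) and Aldoc (0.075) were lost.

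Other members did not pass. Slc2a1, the main glucose transporter, had 80.6, 81.9 and 84.6 CPM in libraries 4 to 6, against 85.2, 81.6 and 107 CPM in libraries 1 to 3 (-0.15 ± 0.08, adjusted p = 0.12). It passed without library 2 (-0.22, adjusted p = 0.029) and without the low-count filter (-0.17, adjusted p = 0.0089). Hk2, a hexokinase, had a log2 fold change of -0.10 (adjusted p = 0.18) and passed without library 1 (-0.16, adjusted p = 0.037). Gapdh, a middle enzyme of the pathway, had 0.07 (adjusted p = 0.4). The list mean of library 3 was 0.191 above the mean of the 6 libraries, whereas the other 5 lay between -0.120 and -0.003. Without library 3, 5 members rose and 7 fell and the median was -0.02. Gapdh then rose by 0.15 (adjusted p = 0.018).

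Hypoxia-response genes moved in both directions. Of 28 listed genes 23 were tested (Egln3, Adm, Ak4, Lox and Igfbp3 had at most 8 counts in any library). Among the tested genes 8 rose and 8 fell, with a median log2 fold change of 0.06. Over all genes tested 21.7% rose and 22.6% fell. The promoters of 4 called genes of the hypoxia and glycolysis lists are shown from 250 bases before to 50 bases after the annotated start (RefSeq, GRCm38.p6, 5′ to 3′ on the gene's strand), the 2 lowest and the 2 highest log2 fold changes among those with a single start in the table. Capitals mark ACGTG or GCGTG on either strand, the core of the HIF-1 binding motif.
Car9: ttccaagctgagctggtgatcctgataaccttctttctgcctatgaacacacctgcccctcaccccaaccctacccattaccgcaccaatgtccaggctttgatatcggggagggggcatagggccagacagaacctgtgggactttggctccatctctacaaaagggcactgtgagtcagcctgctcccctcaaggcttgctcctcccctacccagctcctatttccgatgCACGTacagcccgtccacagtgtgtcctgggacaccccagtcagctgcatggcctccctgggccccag
Ddit4: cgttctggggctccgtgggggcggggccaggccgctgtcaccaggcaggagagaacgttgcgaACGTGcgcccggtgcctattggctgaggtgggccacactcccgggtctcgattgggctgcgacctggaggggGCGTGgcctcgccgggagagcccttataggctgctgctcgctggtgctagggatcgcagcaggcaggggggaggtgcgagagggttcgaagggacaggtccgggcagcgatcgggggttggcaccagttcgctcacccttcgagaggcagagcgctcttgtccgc
P4ha2: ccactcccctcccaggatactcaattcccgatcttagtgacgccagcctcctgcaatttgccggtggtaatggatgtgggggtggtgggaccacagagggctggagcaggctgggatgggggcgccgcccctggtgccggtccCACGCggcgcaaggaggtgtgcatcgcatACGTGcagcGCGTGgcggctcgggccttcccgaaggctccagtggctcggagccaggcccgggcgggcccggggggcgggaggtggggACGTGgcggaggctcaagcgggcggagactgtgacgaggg
Eno2: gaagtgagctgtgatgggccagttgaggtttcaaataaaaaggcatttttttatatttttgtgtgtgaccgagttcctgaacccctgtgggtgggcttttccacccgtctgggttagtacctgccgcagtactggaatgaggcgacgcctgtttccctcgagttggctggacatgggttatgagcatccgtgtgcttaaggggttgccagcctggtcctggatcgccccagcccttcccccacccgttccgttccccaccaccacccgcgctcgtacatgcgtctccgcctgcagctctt
The windows are chr4:43506776-43507075 (Car9, plus strand), chr10:59951721-59952020 (Ddit4, minus), chr11:54100674-54100973 (P4ha2, plus) and chr6:124769624-124769923 (Eno2, minus). The motif occurred once in the window of Car9, at -18 from the start, 2 times in that of Ddit4, 4 times in that of P4ha2 and not in that of Eno2.

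The motif was found in promoters of genes that moved in either direction. Of the genes that rose in the hypoxia and glycolysis lists 8 of 10 had 11 promoters in the table, and 9 of these (81.8%) held it. Of those that fell 13 of 16 had 20 promoters, and 15 (75.0%) held it. Of those not called 17 of 19 had 26 promoters, and 20 (76.9%) held it, against 43.8% of all 32851 promoters in the table. These shares describe letters in the window, and binding was not measured.

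The genes that fell were led by Ndrg1, a stress-response gene of differentiated and hypoxic cells. Ndrg1 had 381, 369 and 369 CPM in libraries 4 to 6, against 782, 705 and 822 CPM in libraries 1 to 3 (-1.05 ± 0.05, adjusted p = 1.5e-09). Bhlhe40, a repressor of the circadian and hypoxic response, had 96.1, 97.6 and 92.4 CPM in libraries 4 to 6, against 186, 164 and 187 CPM in libraries 1 to 3 (-0.91 ± 0.05). Car9, the membrane carbonic anhydrase that is a standard marker of hypoxic tumour cells, had 70.5, 71.4 and 66.8 CPM in libraries 4 to 6, against 120, 115 and 124 CPM in libraries 1 to 3 (-0.78 ± 0.05, adjusted p = 8.2e-09). In these 3 genes the highest of libraries 4 to 6 was well below the lowest of libraries 1 to 3. Ero1l, the oxidase of the endoplasmic reticulum, fell by 0.63, Ddit4, an inhibitor of mTORC1, by 0.48, and P4ha1, a collagen prolyl hydroxylase, by 0.36. Egln1, an oxygen sensor that marks HIF for destruction and is itself raised by it, and Car12, another carbonic anhydrase, fell by 0.33 each.

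The genes that rose included close relatives of those that fell. P4ha2, a second collagen prolyl hydroxylase, had 142, 141 and 131 CPM in libraries 4 to 6 and 79.3, 79.6 and 96.0 CPM in libraries 1 to 3 (0.69 ± 0.06, adjusted p = 3.5e-07). Hilpda, an inhibitor of lipid droplet breakdown, had 65.9, 68.1 and 62.7 CPM in libraries 4 to 6 and 42.3, 46.3 and 44.0 CPM in libraries 1 to 3 (0.57 ± 0.06). Vegfa, the vessel growth factor, had 246, 264 and 254 CPM in libraries 4 to 6 and 206, 208 and 227 CPM in libraries 1 to 3 (0.26 ± 0.05, adjusted p = 0.00035). In all 3 genes every library of the range 4 to 6 was above every library of the range 1 to 3. Plod2, a collagen lysyl hydroxylase, rose by 0.52, and Bnip3, a receptor for mitochondrial autophagy, by 0.37. The mitochondrial proteins Fam162a and Higd1a rose by 0.24 and 0.17, and Angptl4, a lipase inhibitor found here under 2 CPM, by 0.85 ± 0.29. The call of Angptl4 (adjusted p = 0.027) was lost when library 2, 3, 5 or 6 was left out (adjusted p = 0.057 to 0.13).

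Of the HIF machinery itself, 5 of 7 listed genes were tested (Epas1 and Hif3a had at most 1 count in a library). Hif1a, the oxygen-regulated subunit, had 222, 220 and 215 CPM in libraries 4 to 6, against 264, 255 and 244 CPM in libraries 1 to 3 (-0.22 ± 0.04, adjusted p = 0.00068), and the other 4 did not pass. The call of Hif1a was lost with all CT26 libraries in 1 fit (adjusted p = 0.1). HIF-1 is controlled mainly through the stability of its protein, which RNA does not measure.

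**Figure D4:**
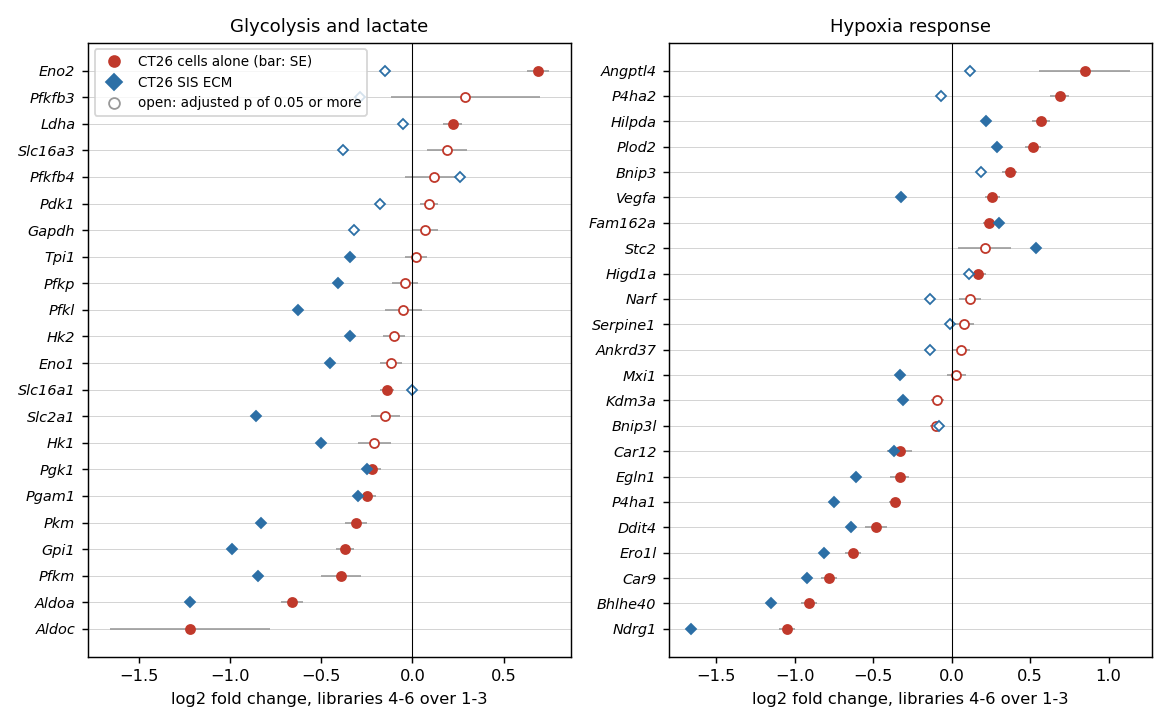
Log2 fold change (libraries 4-6 over 1-3, horizontal axis) of each tested member of the glycolysis (left) and hypoxia (right) lists in CT26 cells alone (red circles, bars ± SE) and CT26 with SIS ECM (blue diamonds). Open symbols have an adjusted p of 0.05 or more. In cells alone the hypoxia list runs from -1.05 for Ndrg1 to 0.85 for Angptl4, and Eno2 at 0.69 and P4ha2 at 0.69 stand apart from their SIS ECM values of -0.15 and -0.07.

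Cell cycle genes moved little and without a common direction. Of 30 genes of DNA replication, 7 rose and 6 fell, with a median of 0.01. These counts were near the shares over all genes tested (21.7% higher and 22.6% lower). Of 30 mitotic genes 5 rose and 11 fell, with a median of -0.06. Ccne2, a cyclin of entry into S phase, had 129, 124 and 119 CPM in libraries 4 to 6 and 83.9, 86.5 and 75.1 CPM in libraries 1 to 3 (0.60 ± 0.05, adjusted p = 2.8e-07), the largest change of the replication list. Mcm4, a subunit of the replicative helicase, had 119, 116 and 123 CPM in libraries 4 to 6, against 165, 162 and 152 CPM in libraries 1 to 3 (-0.42 ± 0.05, adjusted p = 2.4e-06). Both genes kept the ranges apart, in opposite directions within one phase of the cycle. Gins2, another helicase component, rose by 0.48, Tyms, the thymidylate synthase, by 0.43, and Pola1, the catalytic subunit of DNA polymerase alpha, by 0.34.

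Mitotic genes split the same way. Bub1, a spindle checkpoint kinase, had 237, 234 and 231 CPM in libraries 4 to 6 and 183, 179 and 166 CPM in libraries 1 to 3 (0.41 ± 0.04, adjusted p = 2.1e-06), and Cdk1, the mitotic kinase, rose by 0.28. Ccna2, the cyclin A of S phase and G2, fell by 0.26, Foxm1, a transcription factor of G2 genes, by 0.27 and Plk1, another mitotic kinase, by 0.26. The call of Plk1 (adjusted p = 0.027) was lost when library 3, 4 or 5 was left out (adjusted p = 0.067 to 0.14). Mki67, the usual marker of proliferation, had 605, 598 and 584 CPM in libraries 4 to 6, against 645, 618 and 587 CPM in libraries 1 to 3 (-0.05 ± 0.04, adjusted p = 0.39), and the ranges overlapped. Left without library 5, the count of mitotic genes that fell was 4, against 11 with it.

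Regulators of cell cycle entry fell more often than they rose. Of 18 listed genes 15 were tested (Cdkn1c, Cdkn2a and Cdkn2b had no counts), 2 rose and 8 fell, with a median of -0.13. Over all genes tested 21.7% rose and 22.6% fell. Rbl2, the p130 pocket protein of resting cells, had 34.3, 32.1 and 29.7 CPM in libraries 4 to 6, against 54.2, 51.1 and 49.8 CPM in libraries 1 to 3 (-0.69 ± 0.07, adjusted p = 7.7e-07). Cdkn1a, the p21 inhibitor, had 104, 103 and 101 CPM in libraries 4 to 6, against 128, 131 and 134 CPM in libraries 1 to 3 (-0.35 ± 0.04, adjusted p = 5.9e-06). Cdk4, the kinase of G1, rose by 0.28. The other pocket proteins Rb1 and Rbl1 fell by 0.32 and 0.26, whereas the inhibitors Cdkn1b (-0.08, adjusted p = 0.27) and Cdkn2d (0.08, adjusted p = 0.38) did not pass. The cyclin Ccnd2 fell by 0.20 and Myc, a driver of growth, by 0.28. The cyclin Ccnd1 fell by 0.13, a call lost without library 1, 4 or 5 (adjusted p = 0.055 to 0.069).

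**Figure D5:**
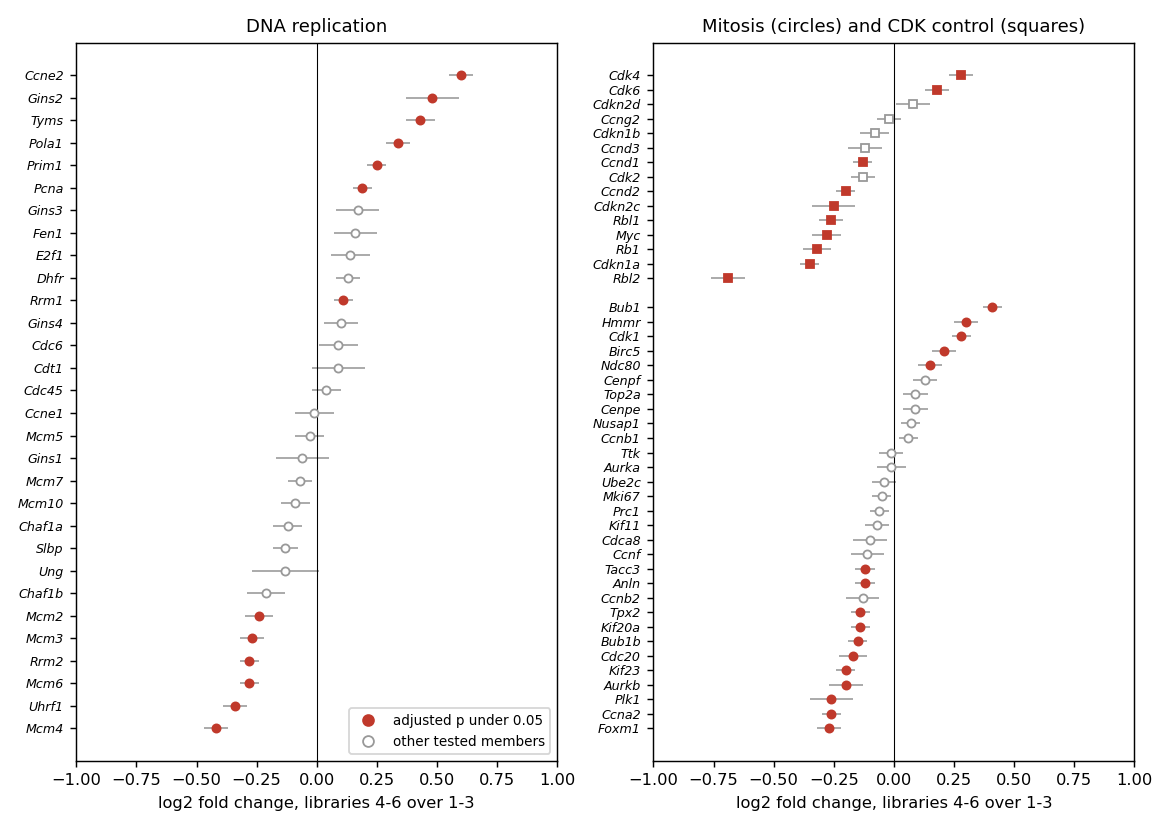
Log2 fold change (libraries 4-6 over 1-3, horizontal axis, bars ± SE) of each tested gene of DNA replication (left) and of mitosis and CDK control (right) in CT26 cells alone. Filled symbols have an adjusted p under 0.05. Replication genes run from -0.42 for Mcm4 to 0.60 for Ccne2, and Rbl2 at -0.69 is the lowest of the CDK control genes.

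Several programmes outside these 4 were lower in libraries 4 to 6. Of 27 tested genes of matrix structure 20 fell and 1 rose, with a median of -0.41 (-0.27 with the length and GC trend subtracted). Col3a1, a fibrillar collagen, stood at 5.27 to 5.88 CPM in libraries 4 to 6, against 14.7 to 20.8 CPM in libraries 1 to 3 (-1.71 ± 0.13, adjusted p = 5.4e-08), the largest fall by the rule for named genes. Thbs1 and Thbs2, secreted thrombospondins that bind matrix and cells, fell by 1.25 and 1.09. Of 10 tested mesenchymal genes 7 fell and 2 rose, with a median of -0.45. Vim, the intermediate filament vimentin, had 2780, 2570 and 2640 CPM in libraries 4 to 6, against 3780, 3980 and 3910 CPM in libraries 1 to 3 (-0.55 ± 0.05). S100a4, a calcium-binding protein of the same list, rose by 0.63. These lists moved with the fibroblast-type markers given above, but at least Col3a1 belongs both to those markers and to the matrix list. The part of these markers in the result was not tested.

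Most tested genes of lipid synthesis fell. Of 18 genes of fatty acid synthesis, desaturation and activation, 14 fell and none rose, with a median of -0.47, and of 22 genes of cholesterol synthesis and uptake 16 fell and 1 rose, with a median of -0.29. Scd1, the desaturase that makes oleate, had 776, 770 and 764 CPM in libraries 4 to 6, against 1640, 1520 and 1560 CPM in libraries 1 to 3 (-1.03 ± 0.04, adjusted p = 3.9e-10). Hmgcs1, an early enzyme of the mevalonate pathway, had 202, 209 and 200 CPM in libraries 4 to 6, against 378, 387 and 379 CPM in libraries 1 to 3 (-0.90 ± 0.04, adjusted p = 5.6e-10). Libraries of one range were nearly equal and the ranges lay far apart. Insig1, a feedback sensor of sterols, fell by 0.86.

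Interferon-stimulated genes, immediate early genes and chaperones of the endoplasmic reticulum fell more often than they rose. Of 28 tested interferon-stimulated genes 17 fell and none rose (median -0.41). Of 18 immediate early genes 10 fell and none rose (median -0.28), among them Egr1, a growth-factor-induced transcription factor (-0.73), and Dusp1, a MAP kinase phosphatase (-1.03). Of 18 chaperones and folding factors 12 fell and 1 rose (median -0.20), with Hspa5, the main chaperone of the compartment, at -0.34.

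Single genes with the largest differences came from scattered functions. Tet2, a dioxygenase that oxidises methylcytosine, had 195, 196 and 177 CPM in libraries 4 to 6 and 71.7, 73.9 and 65.0 CPM in libraries 1 to 3 (1.43 ± 0.05, adjusted p = 1.8e-10). Ppard, a fatty acid-sensing nuclear receptor, rose by 1.15 and Nmrk1, a kinase of nicotinamide riboside, by 1.26. Nedd9, a scaffold of adhesion signalling, averaged 12.4 ± 0.695 CPM in libraries 4 to 6, against 34.4 ± 1.24 CPM in libraries 1 to 3 (-1.47 ± 0.07, adjusted p = 1.6e-09). Car6, a secreted carbonic anhydrase, fell by 1.33 and Fbln5, a glycoprotein of elastic fibres, by 1.19. Rab43, a small GTPase, fell by 1.62 ± 0.46, and library 2 held 19.9 CPM of it, against 3.98 and 5.12 CPM in libraries 1 and 3.

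The same contrast of numbers was larger than the spread between libraries in the other mouse spheroids too. With SIS ECM, 4862 of 12416 genes (39.2%) differed between CT26 libraries 4 to 6 and 1 to 3, and in MC38 cells alone 4719 of 13337 (35.4%) differed between libraries 4 and 5 and libraries 1 to 3. The SIS ECM count was 7029 without library 3 and 3202 without library 1. None of these libraries is shared with CT26 cells alone. Across 12090 genes the log2 fold changes of CT26 cells alone and CT26 with SIS ECM correlated at r = 0.715 (Spearman rho 0.73), and across 11478 genes those of CT26 and MC38 cells alone at r = 0.608 (rho 0.62). These are correlations across genes that share length and GC trends of the same direction. Genes called with the same sign made up 64.3% of the calls in CT26 cells alone and 72.0% of those with SIS ECM, counted over genes tested in both (3470 genes, with 17 called in opposite directions). Against MC38 they made up 54.7% of the CT26 and 65.4% of the MC38 calls (2857 genes, 101 opposite). In HT29 cells alone 0 of 15266 genes (0.0%) were called by edgeR's quasi-likelihood test, 1853 had an unadjusted p under 0.05, and DESeq2 called 2.

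Mitochondrial and ribosomal lists had medians above 0 in the 3 mouse sets. All 13 mtDNA genes rose with SIS ECM (median 1.31, against 0.83 in cells alone) and 12 rose in MC38 (median 0.98), where mt-Nd6 fell by 0.31. The log2 fold change of all 13 was lower in cells alone than with SIS ECM, by differences of -1.08 to -0.23, of which only that of mt-Nd4l passed the interaction test. Nuclear respiratory genes had medians of 0.41 in CT26 cells alone, 0.39 with SIS ECM and 0.46 in MC38, and ribosomal protein genes of 0.59, 0.52 and 0.55. The glycolysis list had medians of -0.11 in CT26 cells alone, -0.34 with SIS ECM and -0.19 in MC38. Mitotic genes had 5 rising and 11 falling members in CT26 cells alone, 14 and 0 with SIS ECM, and 11 and 4 in MC38. Of these 30 genes, 0 passed the interaction test between the 2 CT26 cultures and 2 passed that between CT26 and MC38. Interferon-stimulated genes fell in 17 members in CT26 cells alone and in 18 with SIS ECM, whereas in MC38 13 rose and 2 fell.

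The difference between the 2 CT26 cultures in this contrast was tested as an interaction over 12 libraries and called 31 of 12729 genes (0.244%). Among the genes described, Eno2 had a log2 fold change of 0.69 in cells alone and -0.15 with SIS ECM (adjusted p of the difference 0.033), P4ha2 of 0.69 and -0.07 (0.047), and Vegfa of 0.26 and -0.32 (0.037). Ndrg1 fell in both, by 1.05 in cells alone and by 1.66 with SIS ECM (0.018), and mt-Nd4l rose in both, by 0.87 and 1.68 (0.033). The count of 31 depended on single libraries: it was 0 in 6 of the 12 fits that left out 1 library, and 3101 without SIS ECM library 3. The interaction with the line, over the 11 cells-alone libraries of CT26 and MC38, called 836 of 14258 genes (5.86%), 430 with a higher and 406 with a lower log2 fold change in CT26. Scaled with DESeq2 size factors it called 322 and 552, and its total was 1517 without CT26 library 3, 572 without MC38 library 1 and 509 without MC38 library 2. Of the 13 interferon-stimulated genes among them all had the lower value in CT26, and of 11 hypoxia genes 10 had the higher value, led by Angptl4 (0.85 in CT26, -0.54 in MC38), Hilpda (0.57 and -0.18) and Plod2 (0.52 and -0.11).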

How the data were processed

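Polyadenylated RNA from day 7 spheroids was sequenced from a stranded mRNA kit on a NovaSeq, with libraries pooled within a species, per the labels' protocols. The authors deposited estimated counts per gene, with fractional values, in 1 table per species. The submitters' processing notes name cutadapt, STAR 2.7.0f, RSEM 1.3.1, limma and the builds mm10 and hg38, without their roles. The strand setting was not stated, and 34 per-sample columns of other tables were not used.

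Expected counts were rounded and tested with edgeR 4.0.16 (R 4.3.3), using TMM scaling, the low-count filter at a minimum of 10, the quasi-likelihood F test and Benjamini-Hochberg adjustment over all genes tested at 0.05. The SE is the log2 fold change divided by the square root of F. CPM values are TMM-scaled, and log2 CPM uses a prior count of 2. DESeq2 1.42.0 served as an alternative. The fits were checked on simulated counts. Shares were compared by exact permutation over libraries. The trend in length and GC content of each gene's longest annotated transcript was fitted over all genes tested and subtracted. This alternative was chosen after seeing the data. No label names separate cultures for the libraries, so p-values measure only the spread between them.

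The number split, the members and the lists were chosen with earlier results of these data known. Named genes are members of the mitochondrial, glycolysis, hypoxia and cell cycle lists, members of each other list with the smallest adjusted p, and the 12 called genes that rose most and the 12 that fell most, where the ranges did not overlap and mean log2 CPM was 2 or more, leaving out predicted and clone-named genes. Sequences come from RefSeq (GRCm38.p6).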

Additional observations from a re-analysis of the deposited data

Results flagged for a closer look

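The difference between libraries 4 to 6 and 1 to 3 was not the same size in every set of spheroids, by edgeR's quasi-likelihood test of the interaction itself. Each value below is the log2 fold change in CT26 cells alone minus that in the other set. Against CT26 with SIS ECM 31 genes differed. All 31 calls were lost when cells-alone library 1, 2, 4, 5 or 6 or SIS ECM library 6 was left out. Only 3 of 23 tested hypoxia genes and 1 of 22 tested glycolysis genes were called, each with the higher value in cells alone. The differences were 0.84 for Eno2, 0.77 for P4ha2, 0.61 for Ndrg1 and 0.57 for Vegfa. The lower value in cells alone was seen for mt-Nd4l (-0.82), Fbln5 (-0.72) and the fatty acid elongase Elovl6 (-0.49).

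Against MC38 cells alone 836 genes differed. Hypoxia genes with the higher value in CT26 were Angptl4 (1.42), Hilpda (0.79), Plod2 (0.66), P4ha2 (0.59), Bhlhe40 (0.35) and Vegfa (0.33), and Ndrg1 had the lower value (-0.39). Hk2 was higher by 0.51 and Aldoa lower by a difference of -0.44. The mitochondrial mt-Nd6 and mt-Nd4l differed by 0.66 and -0.44. Cell cycle and growth genes were lower in CT26, with -0.45 for Rbl2, -0.42 for Myc, -0.35 for Mcm4, -0.32 for Ccna2, -0.27 for Rbl1 and -0.26 for Ccnd2. Matrix and mesenchymal genes were lower, with -1.16 for Col3a1, -1.0 for Fbln5, -0.88 for Thbs1, -0.64 for Thbs2 and -0.59 for Vim. Lipid genes differed by -0.45 for Scd1, -0.40 for Insig1 and -0.35 for Hmgcs1. Egr1 differed by -0.99 and Nedd9 by -0.65. Tet2 (0.99), Ppard (0.93), Nmrk1 (0.81) and Rps14 (0.35) had the higher value in CT26.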

How the results depend on the processing

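No paired analysis was possible because the numbers 1 to 3 and 4 to 6 do not repeat between the ranges compared. The count of 5423 genes was 4671 with DESeq2, 5419 with its size factors, 5563 without the low-count filter, 5436 scaled without mitochondrial genes, 4156 with all CT26 libraries in the fit and 4479 to 5527 with 1 library left out, and no call changed sign. Of 109 named genes 13 lost their call in the fit with all CT26 libraries and 4 with DESeq2. In HT29 the count was 2 with DESeq2, 248 without the filter and 0 to 12 with 1 library left out. With SIS ECM it was 3202 to 7029. The interaction with culture called 335 genes with DESeq2, 696 without the filter and 0 to 3101 with 1 library left out, and that with the line 509 to 1517. The causes were not tested.

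Subtracting the length and GC trend, chosen after seeing the data, gave list medians of 0.27 for mtDNA genes, 0.20 for the mitochondrial ribosome, 0.21 for nuclear respiratory genes, -0.07 for the TCA cycle, -0.01 for hypoxia, 0.04 for replication, -0.04 for mitosis, -0.06 for CDK control, 0.36 for the cytosolic ribosome, 0.11 for the proteasome, -0.27 for matrix, -0.24 for cholesterol, -0.39 for fatty acids, -0.44 for interferon-stimulated genes and -0.17 for chaperones. Of 109 named genes, this step moved 70 by their SE or more and left 34 within their SE. It turned the direction of the other 5, mt-Nd3 (-0.01), mt-Nd6 (-0.62), mt-Atp8 (-0.44), Uqcrb (-0.18) and Fam162a (-0.06). Among members whose mean log2 CPM reached 5 the medians were 0.04 for mtDNA expression factors, 0.38 for the mitochondrial ribosome, -0.07 for replication, -0.17 for CDK control, 0.26 for the proteasome, -0.43 for fatty acids, -0.24 for interferon-stimulated genes, -0.22 for chaperones and -0.39 for immediate early genes. Scaled without mitochondrial genes they were 0.04 for the TCA cycle and -0.05 for mitosis. With 1 library left out they ranged from 0.11 to 0.17 for mtDNA expression factors, 0.26 to 0.34 for the mitochondrial ribosome, -0.02 to 0.06 for the TCA cycle, 0.04 to 0.09 for hypoxia, -0.02 to 0.04 for replication, -0.09 to -0.04 for mitosis, -0.16 to -0.14 for CDK control, 0.21 to 0.26 for the proteasome, -0.46 to -0.32 for matrix, -0.49 to -0.42 for fatty acids, -0.44 to -0.39 for interferon-stimulated genes and -0.21 to -0.18 for chaperones.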
